A study of Mus musculus with 12 samples.

Results

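The jejunum of 2 mouse strains, A/J and C57BL/6J (B6), was compared between mice whose common bile duct had been ligated (CBDL) and sham-operated mice, and the changes that both strains shared are described. A gene was taken as gut-expressed when its mean log2 signal over the 6 sham arrays was at least 7, which 6348 of 19938 named genes met. Of these, 4029 differed in the same direction in A/J and in B6. CBDL was then compared with sham over all 12 arrays with strain as a block, and 229 gut-expressed genes passed the test, of which 105 were higher and 124 lower after CBDL. No gut-expressed gene was called with opposite directions in the strains. The test reads the average of both strains, in which opposite directions cancel, so this count is no separate evidence that the strains agree. Differences are given as CBDL minus sham on the log2 scale throughout. The level is an arbitrary line, with Zfp654 just inside it at 7.00001 and Alyref2 just outside at 6.99989, and their differences were -0.09 and -0.23.

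Cholesterol synthesis genes, metallothioneins and several genes that respond to glucocorticoids rose. The cytochrome P450 enzymes Cyp2c55, Cyp2c65 and Cyp2c66, the vitamin B12 receptor cubilin, the zinc importer Slc39a4 and the sterol exporters Abcg5 and Abcg8 fell. Of the interferon-stimulated genes 6 of 14 fell and of the antigen presentation genes 5 of 12, and most of these calls depended on single arrays.

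Bile reaches the gut through the common bile duct, and its acids carry dietary fat and cholesterol into micelles that the enterocyte can absorb. When sterol is scarce in a cell, the transcription factor SREBP2 moves to the nucleus and turns on the enzymes of cholesterol synthesis, whereas excess sterol is pumped back into the lumen by Abcg5 and Abcg8. The jejunum is also where most fat, sugar, zinc and many vitamins are taken up, and its epithelium keeps detoxifying enzymes and antiviral genes at a basal level. CBDL is a surgical model of obstructive cholestasis, in which bile backs up in the liver.

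All mice were male and 8 weeks of age, and the jejunum was taken 7 days after surgery. Each strain had 1 sham and 1 CBDL group, which makes 4 groups with 3 arrays each. The labels do not say whether an array held 1 mouse or a pool, so the p-values measure the spread between these arrays.

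The arrays resembled each other closely, with a lowest mean correlation to the other arrays of 0.970, in A/J sham replicate 1, against at least 0.979 for the remaining arrays. Jejunal markers were at the top of the scale. Vil1, Sis, Lct, Fabp2, Apoa4, Alpi and Slc5a1, which mark absorptive enterocytes, had sham means between 11.7 and 13.6 in log2 signal. Hepatocyte transcripts were present as well. The mean over 28 genes of hepatocyte enzymes and transporters ran from 5.68 to 5.78 in A/J sham, 7.51 to 7.82 in A/J CBDL and 7.35 to 7.63 in B6 CBDL. In B6 sham it was 5.92 in replicate 1, 6.39 in replicate 2 and 7.52 in replicate 3. B6 sham replicate 3 therefore lay within the range of the CBDL arrays for liver genes while being a sham. For albumin (Alb), the main plasma protein made by the liver, the difference between CBDL and sham was 3.27 with an adjusted p of 0.115, and for the liver enzyme Cyp2e1 it was 2.78 with an adjusted p of 0.0599, so neither passed the test with strain as a block. Over both hepatocyte lists, 9 of 55 measured genes reached the gut-expressed level, and 2 of these, Trf and Pck1, are among the 229.

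The 229 genes were 3.61% of the gut-expressed genes, whereas 1.46% of all 35556 probe sets passed the same test. Higher calls were 1.65% of gut-expressed genes against 0.931% of all probe sets, and lower calls were 1.95% against 0.526%. A call means a Benjamini-Hochberg adjusted p under 0.05 in limma, adjusted over all probe sets. The direction shared by both strains was part of the choice, and 63.5% of gut-expressed genes had it against 57% of all probe sets. Among the gut-expressed genes, 131 had all 6 CBDL arrays above all 6 sham arrays, which is 2.06% against 0.92% of all probe sets, and 120 had them all below, which is 1.89% against 0.568%. Most called genes were in these sets, with 73 of the 105 higher and 77 of the 124 lower genes showing no overlap between the operations across strains.

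The changes were moderate in size. The median rise was 0.58 on the log2 scale with a range of 0.25 to 2.94, and the median fall was 0.56 with a range of 0.27 to 2.61. Differences of at least 2-fold were found for 20 higher and 18 lower genes. The level was set on the sham arrays, which favours genes that fell, and with a mean of at least 7 over all 12 arrays the calls were 137 higher and 116 lower. In 4 of the 229 genes, Aplp1, Chst4, Cyp2c55 and Trim30d, the sham mean of 1 strain was below 7, so that they reached the level through the other strain. The median rise was 0.61 in A/J mice against 0.52 in B6 mice, and the median fall was -0.58 against -0.51.

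**Figure D1:**
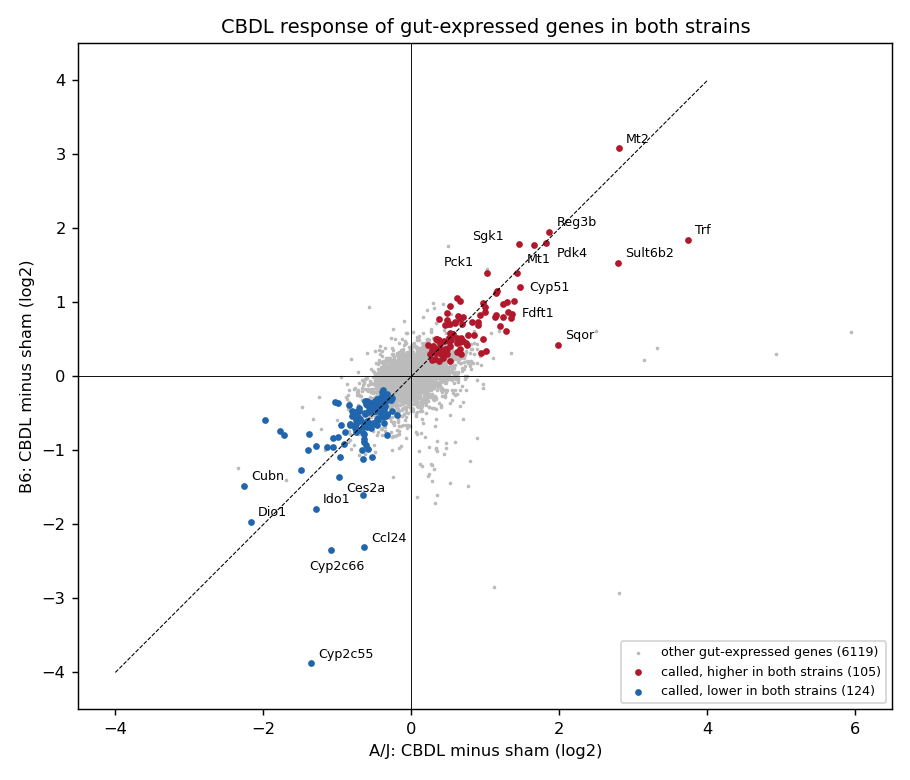
Each point is 1 of 6348 gut-expressed genes, with the CBDL minus sham difference (log2) in A/J on the horizontal axis and in B6 on the vertical axis; the dashed line marks equal differences. Red and blue points are the 105 higher and 124 lower called genes, some of the largest with their names, and the position of the coloured points in the upper right and lower left corners follows from how they were chosen.

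Because the strains share no arrays, genes can be chosen in one strain and read in the other. For this reading the level of 7 was applied to the 3 sham arrays of the choosing strain alone, which 6312 genes met in A/J and 6418 in B6, and some of them are not among the 6348 genes. The 100 such genes with the smallest p in the A/J arrays alone all had the same direction in B6, at a median size of 0.88 in the A/J arrays and 0.58 in the B6 arrays, and 69 of them had an unadjusted p under 0.05 in B6. Of the 100 genes with the smallest p in B6 alone, 86 had the same direction in A/J, 61 of them with an unadjusted limma p under 0.05 there. All 33 of these that were higher in B6 were also higher in A/J, and 53 of the 67 that were lower in B6 were lower in A/J. Over all 6312 and all 6418 genes the share with the same direction was 63.8% and 63.5%. The share that also had an unadjusted limma p under 0.05 in the other strain was 11.5% and 12.9%. Across the 6348 genes the differences in A/J and B6 had a Pearson r of 0.47 and a Spearman rho of 0.41, which describe genes and not independent samples.

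Sterol genes moved together. Of the 16 gut-expressed genes of cholesterol synthesis, 12 rose, none fell and 4 did not pass the test, and all 16 were higher in both strains. Over all 6348 gut-expressed genes, 1996 were higher in both strains and 105 were called higher. The median difference of the 16 cholesterol genes was 0.72, against -0.01 over all gut-expressed genes. The 12 risen genes run from the regulator Srebf2, which encodes SREBP2, through the mevalonate enzymes Hmgcs1, Mvk, Mvd and Idi1 to the squalene and sterol enzymes Fdps, Fdft1, Sqle, Cyp51, Msmo1, Nsdhl and Hsd17b7. Dhcr7, Sc5d, Tm7sf2 and Ebp, which act late in the pathway, had differences of 0.49, 0.24, 0.20 and 0.16 and adjusted p-values of 0.0852, 0.37, 0.403 and 0.377.

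Cyp51, lanosterol demethylase, measured 7.35, 7.29 and 7.07 in A/J sham and 8.81, 8.69 and 8.62 in A/J CBDL, and 7.51, 6.95 and 7.54 in B6 sham and 8.13, 8.69 and 8.80 in B6 CBDL. Every CBDL array was above every sham array, and the strains had nearly the same sham level. The difference was 1.34 (standard error 0.14, adjusted p = 0.00122), a 2.53-fold rise.

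For Fdps, which makes farnesyl pyrophosphate, the sham arrays read 8.26, 8.30 and 8.02 in A/J and 8.59, 7.76 and 8.27 in B6, and the CBDL arrays 9.26, 9.48 and 9.31 and 9.11, 9.45 and 9.50. The operations did not overlap, and the rises of 1.16 in A/J and 1.15 in B6 were almost equal. Fdft1, squalene synthase, rose by 1.20 (standard error 0.13, adjusted p = 0.00195) and Sqle, squalene epoxidase, by 1.11 (standard error 0.13, adjusted p = 0.00235). A second probe set of Fdft1 gave 1.17. Srebf2 itself rose by 0.56 with a standard error of 0.06.

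Hmgcs1, which makes the HMG-CoA that enters the pathway, measured 9.20, 9.25 and 9.28 in A/J sham, 10.47, 10.35 and 10.35 in A/J CBDL, 9.70, 9.37 and 9.69 in B6 sham and 10.03, 10.62 and 10.59 in B6 CBDL. All CBDL arrays lay above all sham arrays, and the difference was 0.99 (standard error 0.11, adjusted p = 0.00219). Its promoter is shown because it was the 1 promoter, of 9 available for the 12 risen genes, with the letters TCACNCCAC of the classical sterol regulatory element on either strand. These letters occur in 1.24% of 32851 promoters of the same length in the RefSeq set. The 300 bases lie at chr13:119690101-119690400 on the plus strand of GRCm38.p6, from 250 bases before the start site to 50 after it, and capitals mark the match, whose first base is at -137.
Hmgcs1: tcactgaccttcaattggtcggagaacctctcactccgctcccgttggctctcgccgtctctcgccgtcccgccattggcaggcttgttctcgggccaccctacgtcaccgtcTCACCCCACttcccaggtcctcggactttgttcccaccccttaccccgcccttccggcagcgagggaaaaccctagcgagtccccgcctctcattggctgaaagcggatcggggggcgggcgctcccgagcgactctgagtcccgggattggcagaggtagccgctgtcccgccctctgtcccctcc
The match is a description of letters and was not tested for binding.

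The genes that take up, sense or export sterol were divided. Insig1, an inhibitor of SREBP processing that is itself induced by SREBP, rose by 1.09 (standard error 0.14, adjusted p = 0.00337). Abcg5 read 10.97, 10.93 and 11.05 in A/J sham and 11.01, 11.05 and 11.04 in B6 sham, but 10.22, 10.37 and 10.10 in A/J CBDL and 9.97, 10.42 and 10.44 in B6 CBDL. The 6 sham arrays lay within a narrow band and every CBDL array lay below it, for a fall of -0.75 (standard error 0.09, adjusted p = 0.00214). Abcg8, the other subunit of the same transporter, changed by -0.74 (standard error 0.09, adjusted p = 0.00219). The other 6 gut-expressed genes of this list did not pass, among them Npc1l1, the cholesterol importer of the brush border, with a difference of -0.53 and an adjusted p of 0.0535. In fatty acid synthesis, 1 of 10 genes rose, namely Fasn, fatty acid synthase, by 0.57 (standard error 0.05, adjusted p = 0.00114). Srebf1, the regulator of that pathway, had a difference of 0.09 with an adjusted p of 0.631. Apoc3, an apolipoprotein of chylomicrons, fell by 0.47 on the log2 scale as the 1 called gene of 17 in fat absorption.

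The sterol genes were also read in the sham array with liver signal. When B6 sham replicate 3 was kept out of the comparison, 12 cholesterol genes were called higher. For all 12 the array left out was nearer to the other B6 sham arrays than to B6 CBDL, at a median of 0.76 below the B6 CBDL mean. It was nearer for 77 of all 88 gut-expressed genes then called higher, so this is not particular to the sterol genes. The reading rests on 1 array, and the part of liver RNA was not tested. The called count of cholesterol genes stayed between 11 and 13 with each of the 12 arrays left out in turn. It was 0 with the hepatocyte mean as a covariate, which holds for nearly all calls as given at the end.

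**Figure D2:**
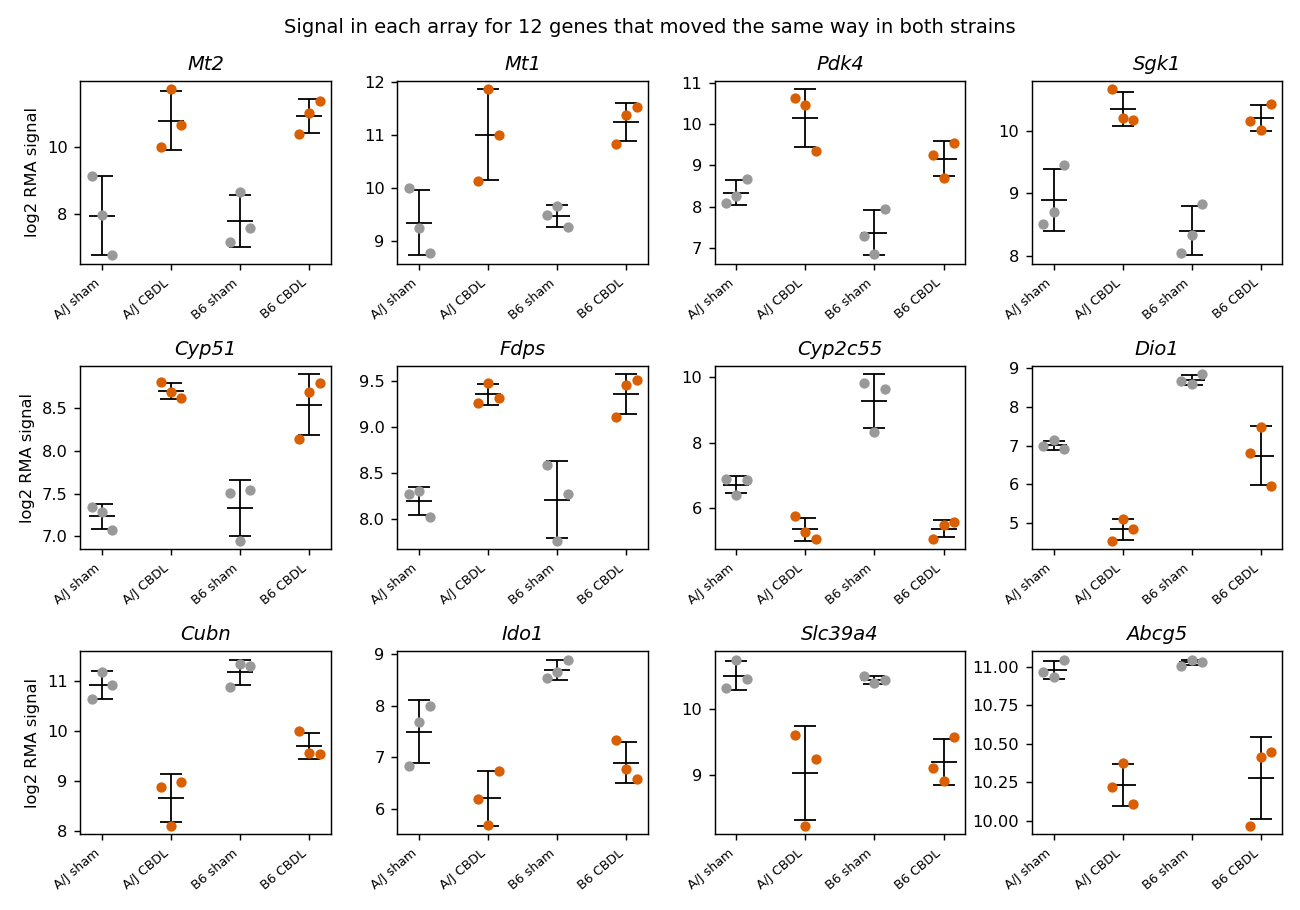
Log2 signal of 12 called genes in each of the 12 arrays, with grey points for sham, orange points for CBDL and black bars for the mean ± SD of 3 arrays. For Cyp51, Fdps, Mt2, Mt1, Pdk4 and Sgk1 all CBDL points are above all sham points, and Dio1 and Ido1 differ between strains so that the operations separate within each strain.

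Metallothioneins had the largest shared rise. Mt2, a small protein that binds zinc and copper, measured 9.12, 7.98 and 6.79 in A/J sham and 9.99, 11.68 and 10.62 in A/J CBDL, and 7.18, 8.67 and 7.59 in B6 sham and 10.36, 10.99 and 11.33 in B6 CBDL. The sham arrays were widely spread and still all lay below the CBDL arrays. The difference of 2.94 (standard error 0.41, adjusted p = 0.00583) is a 7.68-fold rise. Mt1, its neighbour on chromosome 8, read 10.001, 9.25 and 8.79 and 9.49, 9.67 and 9.26 in sham arrays of A/J and B6, and 10.15, 11.87 and 11.02 and 10.84, 11.38 and 11.54 after CBDL. The operations did not overlap, although A/J CBDL replicate 1 was just above A/J sham replicate 1, and the difference was 1.72 (standard error 0.27, adjusted p = 0.0112). Both are close relatives, and their probe sets may share some signal.

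Metallothionein promoters are known for metal response elements, whose core letters are TGCACNC or TGCGCNC. Both promoters are shown because their genes moved together and both hold several such cores. The Mt2 promoter, at chr8:94172368-94172667 on the plus strand, has 4 matches on either strand and the Mt1 promoter, at chr8:94178839-94179138 on the plus strand, has 3. At least 1 match occurs in 25.7% of all promoters of this length and at least 3 in 1.97%. Capitals mark the matches, and the sequences are those of RefSeq in GRCm38.p6.
Mt2: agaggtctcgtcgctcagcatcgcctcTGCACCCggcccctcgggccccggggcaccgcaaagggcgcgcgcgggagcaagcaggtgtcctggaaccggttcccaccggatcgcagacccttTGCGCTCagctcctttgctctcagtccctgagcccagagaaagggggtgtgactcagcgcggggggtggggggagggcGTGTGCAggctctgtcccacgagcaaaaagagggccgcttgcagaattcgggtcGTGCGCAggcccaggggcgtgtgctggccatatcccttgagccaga
Mt1: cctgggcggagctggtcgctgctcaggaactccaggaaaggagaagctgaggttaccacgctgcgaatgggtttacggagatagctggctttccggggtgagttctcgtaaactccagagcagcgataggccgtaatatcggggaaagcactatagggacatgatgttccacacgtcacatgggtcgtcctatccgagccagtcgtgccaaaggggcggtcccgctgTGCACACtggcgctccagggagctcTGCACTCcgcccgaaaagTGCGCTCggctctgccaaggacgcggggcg
Matches of this kind are common, and nothing about a bound factor was measured.

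Both metallothioneins are also induced by glucocorticoids, and 5 of 10 gut-expressed genes of the glucocorticoid list rose, with none lower and a list median of 0.75. Sgk1, a kinase that regulates sodium channels, measured 8.52, 8.71 and 9.44 in A/J sham, 10.66, 10.20 and 10.17 in A/J CBDL, 8.05, 8.33 and 8.83 in B6 sham and 10.16, 10.01 and 10.43 in B6 CBDL. Sham and CBDL did not overlap, and the difference was 1.62 (standard error 0.18, adjusted p = 0.00201). Tsc22d3, which encodes the glucocorticoid-induced leucine zipper, rose by 0.93 (standard error 0.14, adjusted p = 0.00878). Pck1, the first committed enzyme of gluconeogenesis, rose by 1.21 (adjusted p = 0.0206), and it is also a liver gene. Its call was lost without A/J sham replicate 2, A/J CBDL replicate 1 or B6 CBDL replicate 3. Dusp1 and Klf9, further genes of the list, had differences of 0.02 and 0.01 with adjusted p-values of 0.981 and 0.963, and the receptor Nr3c1 had -0.25 with 0.144.

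Genes of fuel use followed a partial pattern. Pdk4, a kinase that shuts down pyruvate oxidation in fasting, measured 8.10, 8.25 and 8.68 and 10.64, 10.47 and 9.36 in A/J sham and CBDL, and 7.28, 6.86 and 7.95 and 9.25, 8.70 and 9.54 in B6. B6 was lower than A/J on average in both operations, and all CBDL arrays lay above all sham arrays, though by little for the lowest of them. The difference of 1.81 (standard error 0.25, adjusted p = 0.00544) split into 1.82 in A/J and 1.80 in B6. Among 15 gut-expressed genes of PPARA targets and fatty acid oxidation, 3 rose and none fell, the others being the mitochondrial enzymes Acaa2, by 0.66 (adjusted p = 0.00511), and Acot2, by 0.84 (adjusted p = 0.0438). Acot2 lost its call with any of 10 arrays left out. The rate-limiting carrier enzyme Cpt1a had a difference of 0.08 and an adjusted p of 0.791. The median of the list was 0.08, with -0.05 in A/J and 0.18 in B6. Of the 15 genes, 7 were higher in both strains and none lower in both, against 1996 higher in both of all 6348 gut-expressed genes. The list mean ran from 9.41 to 9.62 in A/J sham and from 9.66 to 9.69 in A/J CBDL. In B6 it ran from 9.14 to 9.33 in sham and from 9.46 to 9.78 in CBDL. Aldoc, a glycolytic aldolase, rose by 1.41 (standard error 0.18, adjusted p = 0.00366).

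Other large rises came from genes of different kinds. Reg3b, a lectin secreted against bacteria, was already bright in sham arrays, with 11.68, 10.94 and 11.11 in A/J and 11.60, 12.14 and 9.69 in B6, and reached 13.31, 13.33 and 12.69 and 13.28, 13.17 and 12.84 after CBDL. All CBDL arrays were above all sham arrays for a rise of 1.91 (standard error 0.34, adjusted p = 0.018), and the call was lost without A/J sham replicate 2. Reg3g, its close relative, had a difference of 1.13 with an adjusted p of 0.134, and 1 of 7 genes of the antimicrobial list was called. Trf, transferrin, is a plasma protein of the liver, and its rise of 2.79 (adjusted p = 0.00712) ran alongside the liver signal, with 7.79, 8.72 and 9.90 in the B6 sham arrays, the last of them in replicate 3. Sult6b2, a sulfotransferase, differed by 2.16 (adjusted p = 0.0433), a call lost with 9 of the 12 arrays left out in turn. Mgst1, a microsomal glutathione transferase, rose by 0.97 (standard error 0.13, adjusted p = 0.00479) as the 1 called gene of 18 in conjugation and efflux. Nr1h4, which encodes the bile acid receptor FXR, rose by 0.62 (standard error 0.11, adjusted p = 0.0202), lost without A/J CBDL replicate 1 or B6 CBDL replicate 3. It was the 1 called gene of 6 in bile acid sensing, where Slc51a and Slc51b, the exporter of bile acids, had differences of -0.47 and -0.27 with adjusted p-values of 0.118 and 0.131.

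**Figure D3:**
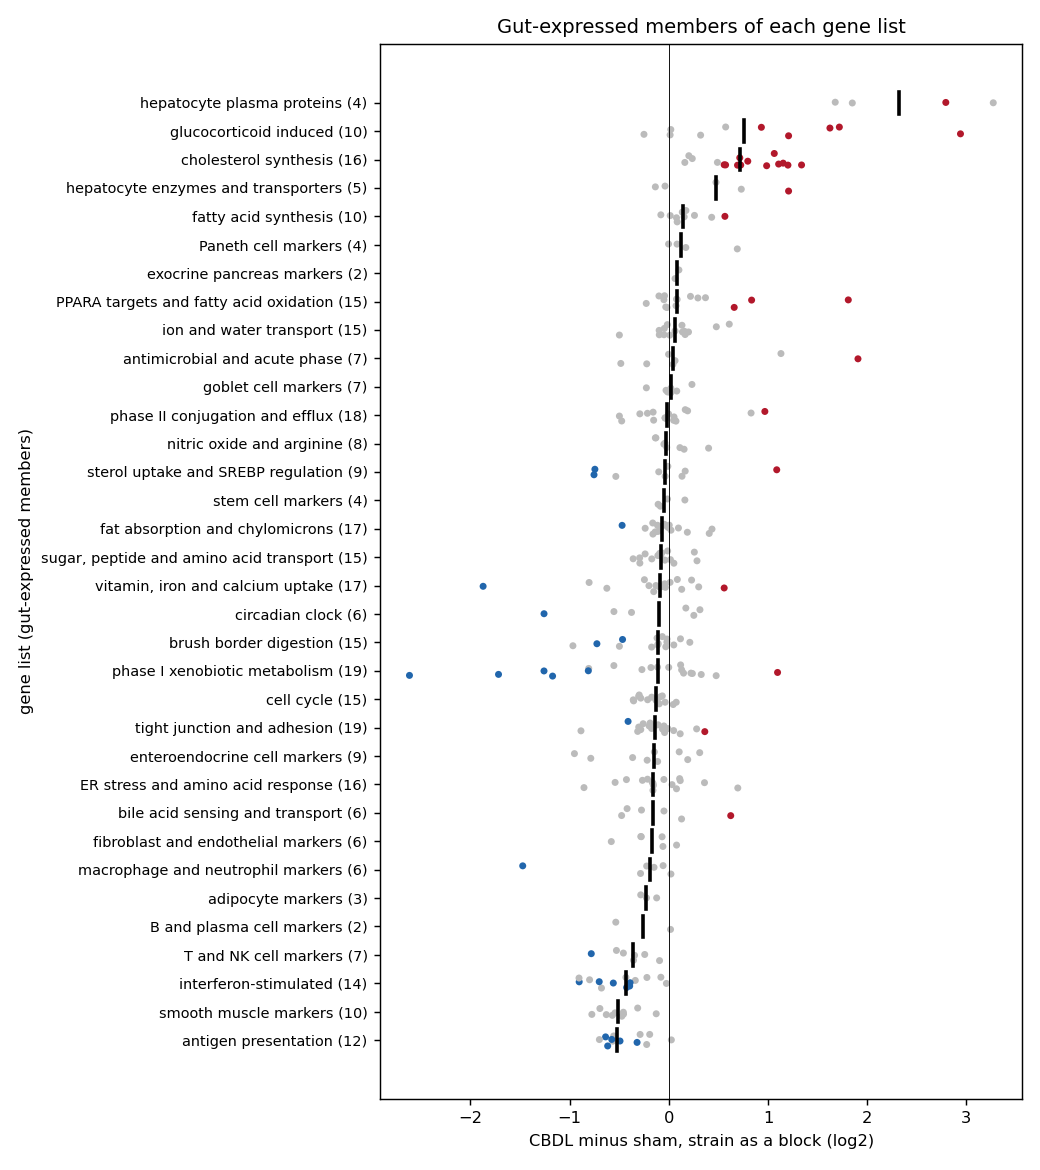
Each point is a gut-expressed gene of the list named at the left, with its number of gut-expressed members in brackets, placed by its CBDL minus sham difference (log2, strain as a block). Red and blue points passed the test, grey points did not, and the black bar is the median, which was 0.72 for cholesterol synthesis and -0.52 for antigen presentation.

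Genes of absorption and hormone handling were among the largest falls. Cubn, cubilin, takes up vitamin B12 bound to intrinsic factor, and measured 10.64, 11.19 and 10.93 in A/J sham, 8.87, 8.10 and 8.98 in A/J CBDL, 10.88, 11.35 and 11.29 in B6 sham and 9.999, 9.55 and 9.55 in B6 CBDL. The groups did not overlap, and it fell by 1.87 in log2 signal (standard error 0.20, adjusted p = 0.00174). Amn, the membrane partner of cubilin, had a difference of -0.13 with an adjusted p of 0.575. Slc39a4 brings dietary zinc across the brush border, and read 10.33, 10.77 and 10.46 in A/J sham and 10.51, 10.40 and 10.45 in B6 sham against 9.62, 8.22 and 9.24 and 9.10, 8.90 and 9.58 after CBDL. All sham arrays lay above all CBDL arrays, and it fell by 1.38 in log2 signal (standard error 0.21, adjusted p = 0.0084). Isx, a transcription factor that restrains vitamin A uptake, rose by 0.56 (adjusted p = 0.0165), and the other 15 of 17 gut-expressed genes of vitamin, iron and calcium uptake were not called.

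Dio1, the type 1 deiodinase that activates and clears thyroid hormone, read 6.98, 7.14 and 6.90 in A/J sham, 4.55, 5.11 and 4.85 in A/J CBDL, 8.68, 8.59 and 8.83 in B6 sham and 6.80, 7.47 and 5.95 in B6 CBDL. The sham level was higher in B6, so that B6 CBDL overlapped A/J sham, but within each strain the operations were apart. Dio1 fell by 2.07 in log2 signal (standard error 0.20, adjusted p = 0.00114), and A/J CBDL ended below the array medians of 5.36 to 5.51. Nr1d1, the clock repressor REV-ERB alpha, fell by 1.26 (standard error 0.18, adjusted p = 0.00748), with -1.72 in A/J and -0.79 in B6. It was the 1 called gene of 6 gut-expressed clock genes, and the output factor Dbp had a difference of -0.55 with an adjusted p of 0.239. Tns4, a focal adhesion protein, fell by 1.19 (standard error 0.17, adjusted p = 0.00595).

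Among 19 gut-expressed enzymes and receptors of phase I metabolism, 5 fell and 1, Cyp4b1, rose by 1.10 (standard error 0.14, adjusted p = 0.00341). Cyp2c55, an enzyme that oxidises arachidonic acid, measured 6.90, 6.42 and 6.85 in A/J sham and 5.75, 5.28 and 5.08 in A/J CBDL, and 9.81, 8.33 and 9.63 in B6 sham and 5.08, 5.48 and 5.59 in B6 CBDL. The sham level was far higher in B6, and the CBDL arrays of both strains came down to about the array medians, where sizes are uncertain. Its A/J sham mean of 6.72 was below the level of 7, which it reached through B6. It fell by 2.61 in log2 signal (standard error 0.43, adjusted p = 0.0134), with -1.35 in A/J and -3.87 in B6. Cyp2c66 fell by 1.72 (adjusted p = 0.0218), a call lost without A/J sham replicate 3, B6 sham replicate 1 or B6 CBDL replicate 3, and Cyp2c65 fell by 0.81 (adjusted p = 0.0438). These genes are closely related in sequence, so their probe sets may share signal. Cyp2u1, a fatty acid hydroxylase, read 8.75, 9.03 and 9.02 and 7.22, 7.11 and 7.13 in A/J sham and CBDL and 7.67, 8.19 and 8.23 and 7.33, 7.38 and 7.18 in B6. It fell to nearly the same level in both strains, from a higher start in A/J, by 1.26 (standard error 0.18, adjusted p = 0.00712). Ces2a, a carboxylesterase, fell by 1.17 (adjusted p = 0.0213), lost without A/J sham replicate 3, A/J CBDL replicate 1, A/J CBDL replicate 2 or B6 sham replicate 1. Cyp3a13, of another P450 family, had a difference of 0.15 with an adjusted p of 0.728. With each array left out in turn, 3 to 6 genes of the list were called.

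The interferon and antigen presentation lists held falls and no rises. Of 14 gut-expressed interferon-stimulated genes, 6 fell, none rose and 8 did not pass, 13 were lower in both strains and the median difference was -0.43. For comparison with both lists, 2033 of all 6348 gut-expressed genes were lower in both strains and 124 were called lower. Herc6, a ligase that attaches the antiviral modifier ISG15, measured 7.88, 7.95 and 8.15 in A/J sham, 7.05, 6.88 and 7.08 in A/J CBDL, 7.56, 7.29 and 7.72 in B6 sham and 6.75, 7.06 and 6.31 in B6 CBDL. The operations did not overlap, and Herc6 fell by 0.90 (standard error 0.12, adjusted p = 0.00544). Oasl2, Rtp4 and Irf7, which encode an RNA sensor relative, a receptor chaperone and the master regulator of interferon, fell by 0.70, 0.56 and 0.42, with adjusted p-values of 0.0219, 0.0402 and 0.0348. The RNA sensor Ddx58 and the tethering factor Bst2 fell by 0.39 and 0.39. Ifit1 had a difference of -0.90 with an adjusted p of 0.0874, and Stat2 of -0.02 with 0.938.

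In antigen presentation 5 of 12 gut-expressed genes fell and none rose, 11 were lower in both strains and the median was -0.52. Psmb8, a subunit of the immunoproteasome that cuts peptides for MHC class I, read 9.59, 9.56 and 9.48 and 8.72, 9.19 and 9.01 in A/J sham and CBDL and 8.84, 8.86 and 9.15 and 8.35, 8.45 and 8.07 in B6. Within each strain the operations were apart, while A/J CBDL overlapped B6 sham, and the fall was 0.62 in log2 signal (standard error 0.10, adjusted p = 0.0112). Psmb9 and Tapbp fell by 0.49 and 0.32, and the class II genes Cd74 and H2-Aa by 0.64 and 0.57, with adjusted p-values of 0.0408, 0.0381, 0.0471 and 0.0424. H2-Ab1 had a larger difference of -0.70 that did not pass, with an adjusted p of 0.106.

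Most of these immune calls depended on single arrays, unlike Herc6 and Psmb8, which kept their calls with each array left out. Oasl2 lost its call with 5 of the 12 arrays left out in turn, Irf7 and Psmb9 with 9, and Rtp4, Cd74 and H2-Aa with 10. The called count of the interferon list ran from 1 to 6 and that of antigen presentation from 1 to 6. Without B6 sham replicate 3 they were 4 and 1, and without both that array and A/J sham replicate 1 they were 2 and 3.

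Immune cell markers differed between the strains in the same arrays. The mean of 22 T and NK cell markers was 5.98 to 6.06 in A/J sham and 5.88 to 6.005 in A/J CBDL, against 6.18 to 6.31 in B6 sham and 5.76 to 5.89 in B6 CBDL, so it was apart in B6 and overlapped in A/J. Of 7 such markers that were gut-expressed, 1 was called, namely Gzmb, the killer cell protease granzyme B, which fell by 0.78 (standard error 0.14, adjusted p = 0.017). Of the 7, 3 had the same direction in both strains, and their median difference was 0.07 in A/J and -0.76 in B6. The mean of 19 macrophage and neutrophil markers overlapped in A/J and ran from 5.95 to 6.05 in B6 sham and from 5.71 to 5.93 in B6 CBDL. Ccl24, a chemokine for eosinophils, fell by 1.47 (adjusted p = 0.0415), with -0.64 in A/J and -2.31 in B6, and lost its call with 10 of the 12 arrays left out in turn. The share of these cells in the tissue was not tested, and in bulk RNA fewer cells of a type and less RNA per cell cannot be told apart. Ido1, which breaks down tryptophan, read 6.82, 7.68 and 7.99 and 6.19, 5.68 and 6.74 in A/J sham and CBDL and 8.52, 8.64 and 8.89 and 7.34, 6.77 and 6.57 in B6. The operations were apart within each strain, and Ido1 fell by 1.54 (standard error 0.23, adjusted p = 0.00868). Trim30d fell by 1.28 (adjusted p = 0.0484), but its A/J CBDL arrays were below the array medians, and it lost its call with 10 of the 12 arrays left out in turn.

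**Figure D4:**
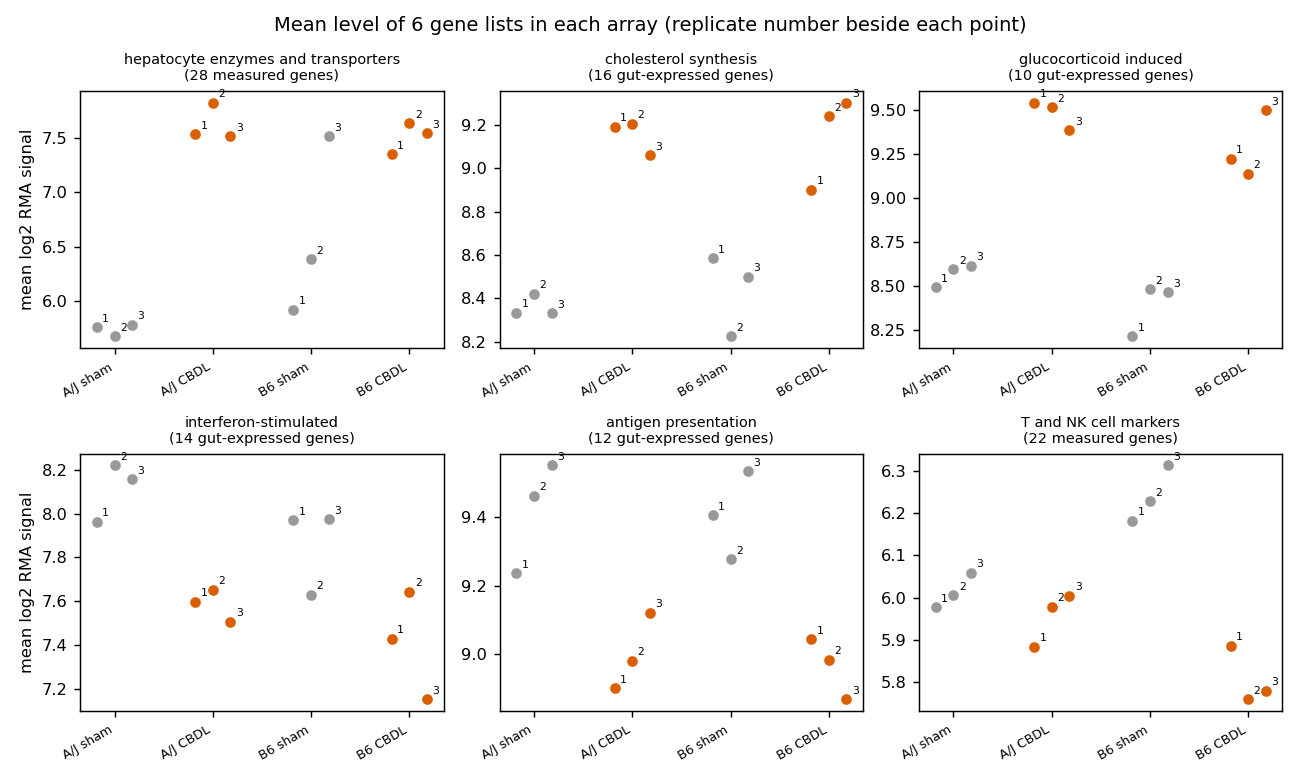
Mean log2 signal of 6 gene lists in each array, with the replicate number beside each point (grey for sham, orange for CBDL). The hepatocyte mean of B6 sham replicate 3 is 7.52, among the CBDL arrays, whereas its cholesterol synthesis mean is 8.50, with the sham arrays, and the T and NK markers separate by operation in B6 and overlap in A/J.

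The structure of the absorptive epithelium showed few shared calls. In brush border digestion 2 of 15 gut-expressed genes fell, the lactase Lct by 0.47 (adjusted p = 0.0314) and the protease Mep1a by 0.72 (adjusted p = 0.0486), and these calls were lost with 9 and 10 of the 12 arrays left out in turn. Sis, sucrase-isomaltase, had a difference of -0.11 with an adjusted p of 0.389. In tight junctions and adhesion, Cldn15, a claudin that forms sodium channels, fell by 0.41 (adjusted p = 0.0307) and St14, the protease matriptase, rose by 0.36 (adjusted p = 0.0375), among 19 genes, with calls lost for 8 and 10 of the 12 arrays. Lower in both strains were 9 of the 15 brush border genes and 12 of the 19 junction genes, against 2033 of all 6348 gut-expressed genes. With each array left out in turn, the called counts of these lists ran from 0 to 2 and from 0 to 4. No gut-expressed gene was called in sugar, peptide and amino acid transport (15 genes), ion and water transport (15), ER stress (16), cell cycle (15), nitric oxide and arginine (8), stem cell (4), Paneth (4), goblet (7) or enteroendocrine markers (9). Smooth muscle markers had medians of opposite sign over 10 genes, 0.28 in A/J and -1.37 in B6, and 1 of the 10 had the same direction in both strains. The mean of 14 measured muscle genes was 6.61, 8.20 and 7.62 in the A/J sham arrays and 7.44 to 8.002 in A/J CBDL. In B6 it was 7.72 to 8.26 in sham and 6.70 to 7.23 in CBDL, so there the operations were apart. The part of muscle RNA in the gene changes was not tested.

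The size of the response was compared between the strains gene by gene. Of the 229 genes, 21 had an unadjusted p under 0.05 for the strain by operation interaction, which is 9.17% against 6.88% of all probe sets. After adjustment 1 remained, against 13 of all probe sets (0.0366%). That gene was Sqor, a mitochondrial enzyme that oxidises hydrogen sulfide. It read 7.10, 6.90 and 7.16 in A/J sham, 9.07, 9.20 and 8.84 in A/J CBDL, 8.96, 8.60 and 8.92 in B6 sham and 8.98, 9.37 and 9.41 in B6 CBDL. The A/J sham arrays were far below the other 3 groups, and B6 CBDL was just above B6 sham. The rise was 1.99 in A/J and 0.43 in B6, with a difference of 1.56 (95% interval 1.09 to 2.03, adjusted p = 0.0476). Cyp2c55 had the widest gap among the 229 genes, 2.52 (95% interval 1.45 to 3.58), but did not pass, with an adjusted p of 0.294, and its A/J sham level was already low. For 188 of the 229 genes the 95% interval of the strain difference lay within 1 log2 unit of 0. The 229 were chosen for a shared direction in a fit without the interaction, which favours genes with a small strain difference. That count is therefore a description of the chosen genes. A typical interval reached 0.42 to either side of its estimate. These intervals are not adjusted for the number of probe sets. Sqor, the 1 gene called, had an unadjusted limma p of 1.51e-05, so a typical gene with a strain difference of 0.42 would not be called.

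Calls within single strains were fewer. In A/J alone 59 of the 229 were called (25.8%, against 0.818% of all probe sets), and in B6 alone 8 (3.49%, against 0.0534%). The 229 were chosen on the same arrays, so these shares are a description, and the numbers of calls do not show that the strains differ.

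**Figure D5:**
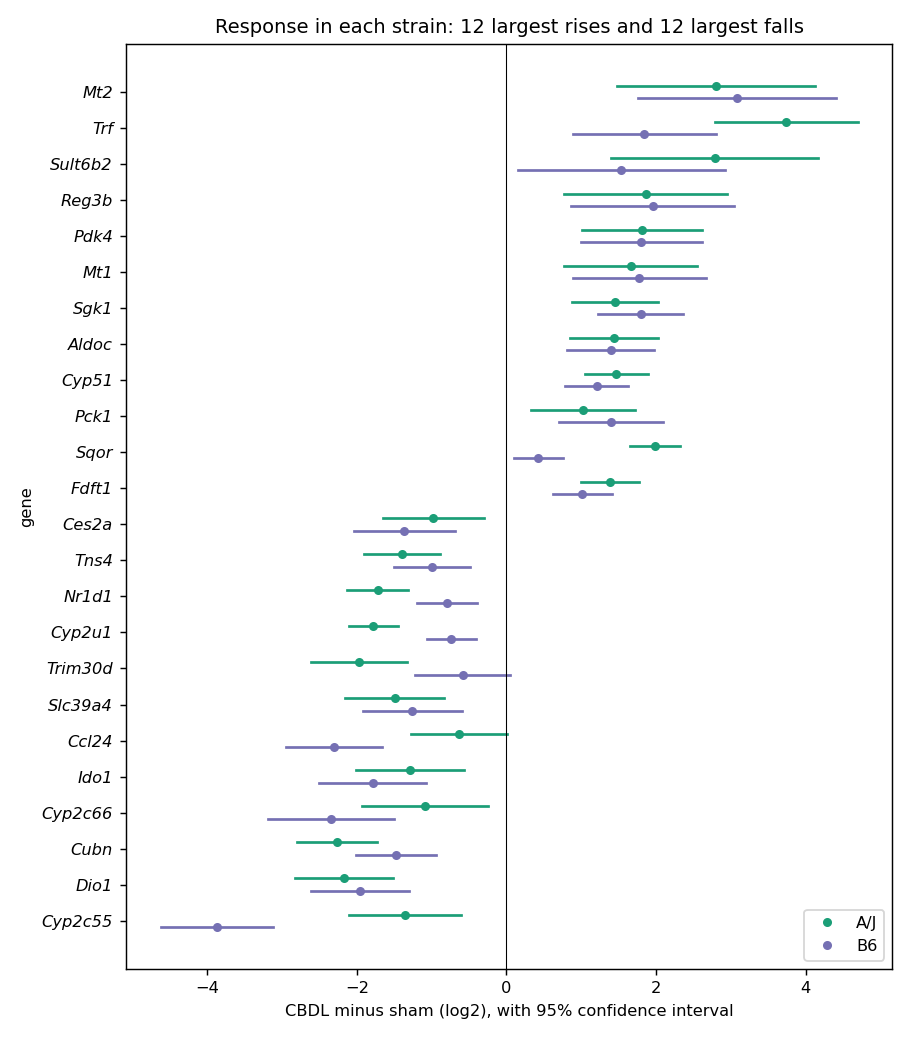
CBDL minus sham difference (log2) in A/J (green) and B6 (purple) for the 12 largest rises and 12 largest falls, with bars for the 95% confidence interval from the limma fit with 1 mean per group. The A/J and B6 intervals of Sqor, from 1.65 to 2.32 and from 0.10 to 0.76, do not overlap, whereas those of Mt2, Pdk4, Sgk1, Dio1 and Fdft1 do.

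The liver signal moved with the operation. In A/J the hepatocyte mean separated sham from CBDL, so there the liver signal and the operation cannot be told apart. Strain and operation together explained 74.1% of the variance of the hepatocyte mean. With that mean as a covariate, 1 gut-expressed gene, Ccl24, was called instead of 229, at a median standard error 1.97 times as wide. All 229 kept their sign, the median size was 0.55 against 0.57, and 182 had an unadjusted limma p under 0.05. Over all 6348 gut-expressed genes, 412 moved the same way in both strains with such a p. The 229 were chosen for a difference in these same arrays, so their kept signs and sizes are a description and no independent support. The difference moved by over 1.5 times for 32 of the 229. Trf went from 2.79 to 0.73, Sqor from 1.21 to 0.36, Reg3b from 1.91 to 3.09 and Ccl24 from -1.47 to -2.89. When B6 sham replicate 3 was left out, 88 gut-expressed genes were called higher and 79 lower, and the array was nearer to the other B6 sham arrays than to B6 CBDL for 77 of the 88 and 77 of the 79. For the 55 hepatocyte genes it was nearer to the other sham arrays for 6. These counts rest on 1 array, and the part of liver RNA in the shared changes was not tested. A/J sham replicate 1, the array with the lowest correlation, was nearer to its fellow sham arrays for 79 of 84 higher and 81 of 139 lower genes when left out in the same way.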

How the data were processed

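Total RNA from 12 jejunum samples was hybridised to Affymetrix Mouse Gene ST arrays. The authors deposited log2 values for 35556 probe sets, for which the labels name RMA and the Affymetrix Expression Console, whereas the methods of the study name GCRMA and a different Affymetrix array. The deposited probe sets are those of the Gene ST platform. The values ran from 1.57 to 14.4 and were used as deposited. Gene names came from the platform annotation (21789 probe sets with 1 name, 1621 with several and 12146 with none), and each gene was represented by its brightest probe set with 1 name. No detection calls or depths come with the values, and 3 arrays per group limit how precise a value can be.

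A linear model of strain and operation was fitted to all probe sets and 12 arrays in limma 3.58.1 (R 4.3.3), using moderated variances and Benjamini-Hochberg adjustment over all probe sets. Values within a strain and the interaction came from a fit with 1 mean per group. The genes named were the 12 largest rises and 12 largest falls, up to 4 called genes of each of 36 lists, genes called in the interaction, and Alb and Cyp2e1. Further genes were named to describe a list or after their values were seen. The comparison, its members and the lists were chosen with earlier results of these data known, so list counts carry no p.

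Alternatives changed the model, the variance prior, array weights, normalization, the probe sets tested, the level and size limits, added the hepatocyte mean or the replicate number to the model, or left out each array in turn. Leaving out A/J sham replicate 1 and B6 sham replicate 3 together was added after seeing the data. Promoters came from a RefSeq table in GRCm38.p6, which held 183 of the 229 genes.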

Additional observations from a re-analysis of the deposited data

Results flagged for a closer look

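Sqor was flagged because its response differed between the strains in a test of the interaction. CBDL minus sham was 1.99 (standard error 0.15) in A/J and 0.43 (standard error 0.15) in B6 on the log2 scale, and the difference between these was 1.56 (standard error 0.21, limma interaction adjusted p = 0.0476). In A/J the 3 CBDL arrays were above the 3 sham arrays by more than 1 log2 unit, and in B6 the lowest CBDL array was above the highest sham array by a small margin. The rise with strain as a block lost its call with 9 of the 12 arrays left out in turn.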

How the results depend on the processing

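The 229 shared calls (105 higher, 124 lower, from 518 called probe sets) depended on the arrays and the variance model. With each array left out in turn the total ran from 100 to 223, higher from 58 to 88, lower from 42 to 139 and all probe sets from 227 to 524. The total fell by more than 1.5 times without A/J sham replicate 2 (100), A/J sham replicate 3 (115), A/J CBDL replicate 1 (125), A/J CBDL replicate 2 (126), B6 sham replicate 1 (131) or B6 CBDL replicate 3 (113). Without A/J sham replicate 1 and B6 sham replicate 3 it was 130 (53 higher, 77 lower). Of the 49 named genes called, 29 kept their call with each array left out, among them Cyp51, Fdps, Mt2, Mt1, Pdk4, Sgk1, Abcg5, Cubn, Slc39a4 and Dio1, and 26 kept it under all alternatives but the covariate. Deviations of same-numbered arrays correlated from -0.31 to 0.36. Differently numbered arrays were not compared, so this range cannot show whether replicate numbers pair the arrays. A replicate block gave 144 (67 higher, 77 lower). Without empirical Bayes there were 141 calls (70 lower; 306 probe sets). Testing only the 21789 probe sets with 1 gene name gave 405 (182 higher, 223 lower, from 784 called probe sets). With the hepatocyte mean as a covariate 1 gene was called (0 higher, 1 lower; 8 probe sets), 412 gut-expressed genes moving the same way in both strains had an unadjusted p under 0.05 in limma, and the values of Alb and Cyp2e1 turned to -0.23 and -0.65. With a level of 8 there were 63 higher calls, with no level 412 calls (247 higher), with at least 1.5-fold 109 (51 and 58), and with 1.5-fold in each strain 80 (38 and 42). The cause of these shifts was not tested. The remaining settings kept the total between 156 and 307. A detection limit is not given, so levels near the array medians are uncertain.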

Other observations

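Further genes of the 229 were named after their values were seen and stand for no list. Slc30a4, which loads zinc into vesicles and milk, rose by 0.66 (standard error 0.11, adjusted p = 0.0121), with 8.99, 8.95 and 8.69 in A/J sham, 9.79, 9.90 and 9.26 in A/J CBDL, 8.69, 8.59 and 8.75 in B6 sham and 9.29, 9.17 and 9.24 in B6 CBDL. The operations did not overlap. Pex11a, a factor of peroxisome division, rose by 0.75 (adjusted p = 0.0166), the peroxisomal isomerase Eci2 by 0.66 (adjusted p = 0.0134) and the branched-chain oxidase Acox2 by 1.14 (adjusted p = 0.0317). Aacs, which makes acetoacetyl-CoA, rose by 0.56 (adjusted p = 0.00544), Erg28, a scaffold of sterol enzymes, by 0.45 (adjusted p = 0.0234), and the cholesterol carrier Stard5 by 0.88 (adjusted p = 0.00868).

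Il33, an alarm cytokine of epithelial and stromal cells, measured 7.53, 7.80 and 7.75 in A/J sham, 6.97, 6.30 and 6.62 in A/J CBDL, 7.74, 7.84 and 8.20 in B6 sham and 7.15, 7.08 and 6.67 in B6 CBDL. It fell by 1.01 (standard error 0.13, adjusted p = 0.00363) with no overlap between the operations. Casp1, the inflammasome protease, fell by 0.62 (adjusted p = 0.0117). Steroid dehydrogenases went both ways, since Hsd17b2 and Hsd17b6 fell by 1.05 and 1.08 (adjusted p = 0.00212 and 0.00235), while Hsd3b3 rose by 0.94 (adjusted p = 0.0305). For Hsd3b3 the operations overlapped, with 7.61 in B6 CBDL replicate 1 and 7.76 in A/J sham replicate 3. With the hepatocyte mean as a covariate the differences of Hsd17b2, Hsd17b6 and Hsd3b3 were -1.23, -0.76 and 0.48.

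Below the gut-expressed level, 183 further genes were called with the same direction in both strains, 142 of them higher and 41 lower. They included 20 of the 27 measured hepatocyte plasma proteins. Glucocorticoid genes below the level were Fkbp5, with a difference of 3.12 (adjusted p = 0.00235), Zbtb16, with 1.77 (adjusted p = 0.0112), and Per1, with 0.85 (adjusted p = 0.0112). Lcn2, an antimicrobial lipocalin, rose by 3.15 (adjusted p = 9.12e-04), and Cyp1a1, a target of the aryl hydrocarbon receptor, fell by 2.11 (adjusted p = 0.00235).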
